A study of Mus musculus with 2 samples.

Results

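The TNF superfamily costimulatory genes described here are 10 genes that form ligand and receptor pairs on T cells, NK cells and antigen-presenting cells. They were chosen by name, from 31055 gene features, and comprise 5 receptors (Tnfrsf9, Tnfrsf4, Tnfrsf18, Cd27 and Cd40) and 5 ligands (Tnfsf9, Tnfsf4, Cd70, Cd40lg and Tnfsf14). All were present in the matrix and each had UMIs (unique molecular identifiers, counts of captured mRNA molecules) in the 4236 cells that were kept. The cells were immune cells of B78ChOVA melanoma, a mouse tumour line injected under the skin in 50 µl and harvested after 16 days. Sections of about 160 µm were cut while the tissue was alive, and ZipSeq marked regions of them with the spatial barcodes ZC1, ZC2 and ZC3 before dissociation. Gene expression and spatial barcodes were read as 2 libraries of the same cells, with no second tumour or replicate library, so no test between conditions was possible. The labels give neither strain, sex and age of the mice nor the number of tumours or the regions behind the barcodes.

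Costimulatory receptors of this family are clustered by trimeric ligands, bind TRAF adaptors in the cytoplasm and activate NF-κB, which promotes survival, division and cytokine production. 4-1BB (Tnfrsf9), OX40 (Tnfrsf4) and GITR (Tnfrsf18) appear on T cells after antigen recognition and are carried by regulatory T cells. CD27 is already present on resting T cells and its ligand CD70 appears on activated cells. CD40 sits on antigen-presenting cells and is bound by CD40 ligand (Cd40lg) on helper T cells. LIGHT (Tnfsf14) binds HVEM (Tnfrsf14) and the lymphotoxin β receptor (Ltbr).

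Several members are neighbours in the mouse genome (GENCODE M21, GRCm38, the build that the submitters' notes name as mm10). Tnfrsf4 (chr4:156013843-156016612, plus strand) and Tnfrsf18 (chr4:156026164-156028895, plus strand) lie 9551 bases apart with 0 protein-coding genes between them. Tnfrsf9 lies on the same chromosome (chr4:150914562-150946102, plus strand). The ligands Tnfsf9 (chr17:57105325-57107757, plus strand), Cd70 (chr17:57145997-57149777, minus strand) and Tnfsf14 (chr17:57189492-57194177, minus strand) follow each other on chromosome 17, again with 0 protein-coding genes in the gaps. Cd27 (chr6:125232622-125237010, minus strand), Cd40 (chr2:165055627-165072948, plus strand), Cd40lg (chrX:57212143-57224042, plus strand) and Tnfsf4 (chr1:161395409-161418410, plus strand) are single loci. A gene on the opposite strand overlaps Tnfrsf9 (Camta1), Tnfsf9 (Gm11110), Tnfrsf18 (Gm16008) and Cd27 (Vamp1). The labels do not state whether counting used the strand, and whether reads of these partners entered the counts was not checked. On the same strand, the microRNA gene Mir8113 overlaps Cd27.

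Sequences before RefSeq starts of Tnfrsf9, Tnfrsf4 and Tnfrsf18 are shown because each gene was highest in regulatory T cells, apart from the next class, but differed in other classes. Cd27, also highest there, overlapped the next class and is not shown. Each is the 250 bases before an annotated start, from RefSeq on GRCm38.p6, written 5′ to 3′ on the gene's strand. RefSeq starts can differ from the GENCODE spans given above. The Tnfrsf9 sequence lies within the span of its gene, and the Tnfrsf18 sequence reaches into the span of its gene. Capitals mark matches to a κB-type motif (GGG, any 2 bases, then TTTCC) and to an AP-1-type motif (TGANTCA), searched on both strands.
Tnfrsf9, chr4:150927749-150927998: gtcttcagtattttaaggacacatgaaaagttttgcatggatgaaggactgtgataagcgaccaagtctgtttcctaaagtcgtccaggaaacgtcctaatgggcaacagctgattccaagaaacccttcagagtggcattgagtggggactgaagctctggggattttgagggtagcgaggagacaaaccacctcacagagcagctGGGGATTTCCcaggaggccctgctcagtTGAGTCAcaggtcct
Tnfrsf4, chr4:156013445-156013694: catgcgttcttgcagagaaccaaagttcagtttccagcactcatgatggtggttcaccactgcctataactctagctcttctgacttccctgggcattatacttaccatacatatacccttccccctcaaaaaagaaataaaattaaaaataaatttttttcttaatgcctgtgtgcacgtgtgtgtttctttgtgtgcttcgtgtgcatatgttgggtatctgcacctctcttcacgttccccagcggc
Tnfrsf18, chr4:156026072-156026321: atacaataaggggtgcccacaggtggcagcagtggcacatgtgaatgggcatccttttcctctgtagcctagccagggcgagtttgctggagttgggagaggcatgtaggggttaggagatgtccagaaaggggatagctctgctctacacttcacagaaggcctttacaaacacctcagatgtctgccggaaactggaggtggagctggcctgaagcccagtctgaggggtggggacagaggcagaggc
The Tnfrsf9 window held 1 match of each kind, which began 43 and 15 bases before the start. Windows of Tnfrsf4 and Tnfrsf18, and a further Tnfrsf9 window at another start, held 0 matches of either. Of 32851 RefSeq windows of the same 300 bases, 1.63% held the κB-type motif and 7.81% the AP-1-type motif. Windows were found for 5 of the 10 members (Tnfrsf9, Tnfrsf4, Tnfrsf18, Cd27 and Tnfsf14). Of these, Tnfsf14 held 1 AP-1-type match, 160 bases before its start, and Cd27 held 0 of either kind. These matches are letters in a window and not measured binding sites.

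Barcodes entered as cells from 1000 UMIs and 500 genes upward, with no more than 10% of UMIs from mitochondrial genes, and were clustered without the members. Clusters were named from marker genes alone, so each class below is an X-like set. T cells were divided into regulatory T cells (Treg, 82 cells with a Foxp3 UMI), Foxp3-negative CD4 T cells (81 cells) and CD8 T cells. An 8-gene checkpoint list that contains no member (Pdcd1, Havcr2, Lag3 and others) divided the CD8 T cells, cluster by cluster, into a checkpoint-high set of 110 cells and a checkpoint-low set of 113 cells, at 1027 and 183 CPM for the list. CPM are UMIs summed over the cells of a set per 1000000 UMIs of that set. Cluster 21, the source of the checkpoint-high CD8 T cells, also held 171 Cd4 UMIs, against 265 in all Foxp3-negative CD4 T cells, which came partly from it. The Foxp3-negative CD4 set held the checkpoint list at 894 CPM. The other sets were 75 NK cells, 43 mature dendritic cells (mature DC; Ccr7, Fscn1), 46 type 1 and 144 type 2 conventional dendritic cells (cDC1 and cDC2), 779 monocytes, 62 nonclassical monocytes, 2159 macrophages and 63 melanoma cells. A cluster of 216 cells carried CD3 and C1q genes together and was set aside as mixed, and 1 of 146 cells led by Retnla and Folr2 stayed unnamed. Another 82 cells of the T clusters passed no gate and entered no T cell set. Median depth was 14665.5 UMIs in checkpoint-high and 5595 in checkpoint-low CD8 T cells, 7446.5 in Treg, 4836 in Foxp3-negative CD4 T cells, 6090 in NK cells, 18359 in mature DC and 31346 in macrophages. Intervals in parentheses are exact 95% intervals that cover counting error only, not differences between tumours. Free RNA, which leaks from broken cells into all droplets, was read from 68497 barcodes with 10 to 100 UMIs. Estimated from marker genes, it made up 2.92% of the UMIs of monocytes, 5.68% of macrophages and 7.69% of mature DC. CPM given for free RNA refer to that RNA alone, and not to the smaller amount that it adds to a set of cells.

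Receptors and ligands were highest in different lineages of the tumour for some pairs only. Tnfrsf9 and Cd40lg were highest in lymphocytes, whereas their partners Tnfsf9 and Cd40 were highest in myeloid cells. By contrast, checkpoint-high CD8 T cells held both Tnfrsf4 and Tnfsf4, and both Cd27 and Cd70. Tnfrsf9, Tnfrsf4, Tnfrsf18 and Cd27 were highest in lymphocytes, Cd40 was highest in myeloid cells, and Tnfsf9 was the only ligand of the 5 whose level stood higher in monocytes and macrophages than in T and NK cells. Cd70, Tnfsf4 and Cd40lg were found mainly in T cells, Cd70 also in mature DC. Levels of different genes are not compared with each other, since capture differs between transcripts.

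**Figure D1:**
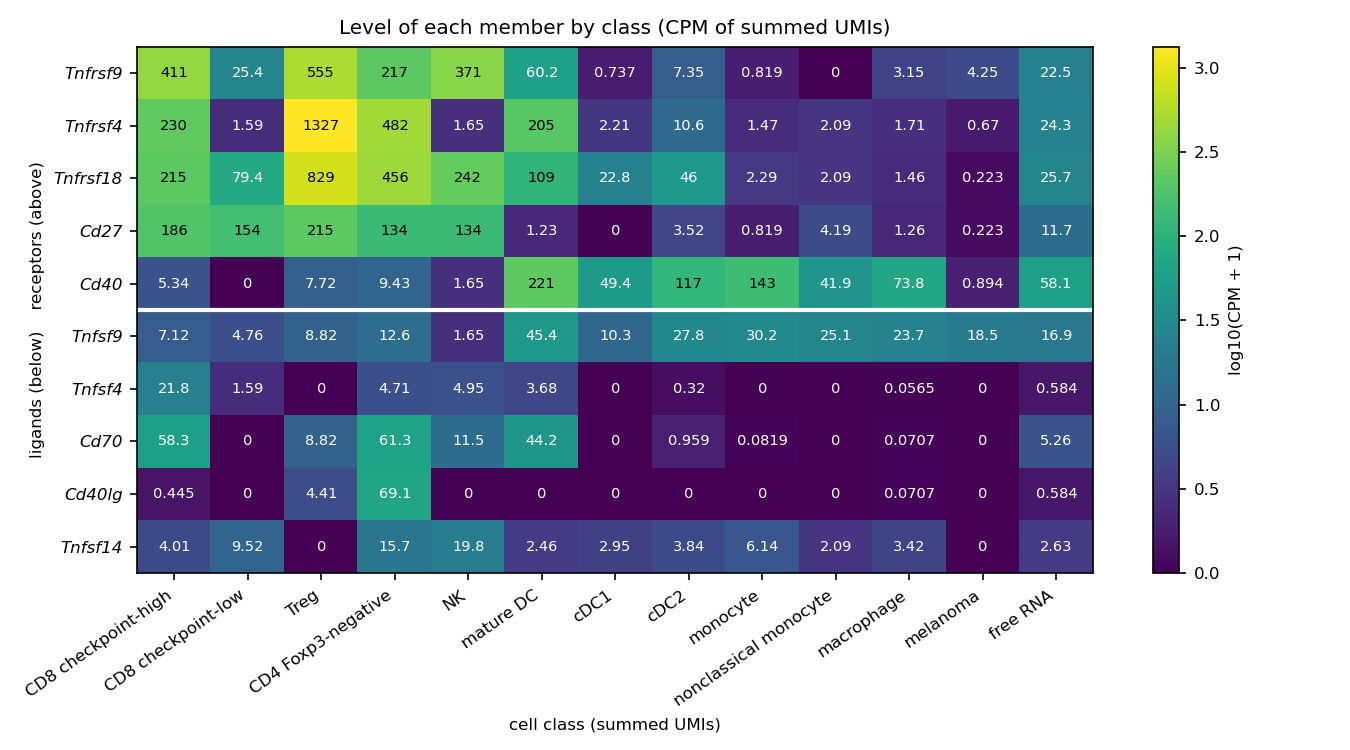
CPM of each member (rows, receptors above the line and ligands below) in each class and in free RNA (columns), with the colour on a log10(CPM + 1) scale. Tnfrsf4 is at 1327 in Treg and 1.59 in checkpoint-low CD8 T cells, and Cd40 at 221 in mature DC and 0 in checkpoint-low CD8 T cells.

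4-1BB (Tnfrsf9) was highest in Treg, at 555 CPM (507 to 605). Checkpoint-high CD8 T cells followed at 411 (385 to 438) and NK cells at 371 (324 to 423), and the intervals of these 2 overlapped. Foxp3-negative CD4 T cells held 217 (182 to 256), mature DC 60.2 (44.5 to 79.5) and checkpoint-low CD8 T cells 25.4 (14.5 to 41.2), each apart from the next. Macrophages stood at 3.15, below the 22.5 of free RNA. Cells within a class differed widely. In checkpoint-high CD8 T cells, 11 of 110 cells held 50% of the Tnfrsf9 UMIs, the median was 2.32 per 10000 UMIs of a cell and the highest was 36.7. NK cells were as uneven, with 5 of 75 cells holding 50% and 1 cell holding 54 of the 225 UMIs, whereas in Treg 17 of 82 cells held 50%.

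The 4-1BB ligand (Tnfsf9) had no such peak. Mature DC held 45.4 CPM (32.0 to 62.6), monocytes 30.2 (27.2 to 33.5), cDC2 27.8 (22.3 to 34.3), macrophages 23.7 (22.6 to 24.9) and melanoma cells 18.5 (14.8 to 23.0), beside 16.9 (12.9 to 21.9) in free RNA. Neighbours in this order overlapped. Checkpoint-high CD8 T cells, at 7.12 (4.07 to 11.6), lay below free RNA, Treg, at 8.82 (3.81 to 17.4), overlapped it, and NK cells held 1 UMI. Macrophages contributed 66.6% of all Tnfsf9 UMIs through their number.

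OX40 (Tnfrsf4) marked Treg most, at 1327 CPM, with a UMI in 79 of 82 cells and up to 85 UMIs in a cell. Foxp3-negative CD4 T cells held 482 (430 to 540), checkpoint-high CD8 T cells 230 (210 to 250) and mature DC 205 (175 to 239). The last 2 overlapped and the others stood apart. By contrast, checkpoint-low CD8 T cells and NK cells held 1 UMI each over 113 and 75 cells. Thinned to 2000 UMIs a cell, which removes the difference in depth, 87.5% of Treg (78.2% to 93.8%), 48.8% of Foxp3-negative CD4 T cells, 38.1% of mature DC, 34.5% of checkpoint-high CD8 T cells and 0.283% of macrophages had a Tnfrsf4 UMI. Macrophages serve here as cells that should lack the gene, at a median depth of 31346 UMIs before thinning.

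OX40 ligand (Tnfsf4), which is known from antigen-presenting cells, had only 96 UMIs in the kept cells, and 49 of them were in checkpoint-high CD8 T cells. That class held 21.8 CPM (16.1 to 28.8), spread over 25 of 110 cells with at most 7 UMIs in a cell. The mixed cluster held another 26.0% of the UMIs. The other named classes held at most 4 UMIs each, the 4 being spread over 2159 macrophages. Mature DC held 3 UMIs, or 3.68 CPM (0.760 to 10.8), Treg and monocytes 0, where 3 counts would equal 3.31 and 0.246 CPM.

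GITR (Tnfrsf18) was the most widely spread receptor of the lymphocytes. Treg held 829 CPM (771 to 891), Foxp3-negative CD4 T cells 456 (405 to 511), NK cells 242 (205 to 285) and checkpoint-high CD8 T cells 215 (196 to 235), the last 2 overlapping. Mature DC at 109 and checkpoint-low CD8 T cells at 79.4 also overlapped. In cDC2 it was at 46.0 (38.8 to 54.2), above the 25.7 (20.6 to 31.7) of free RNA, and in cDC1 at 22.8 (15.5 to 32.4), which overlaps free RNA. Monocytes held 2.29 and macrophages 1.46. The GITR ligand Tnfsf18, which is no member, had at most 5 UMIs in any class, the 5 being in melanoma cells, so its source was not detectable at this depth.

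CD27 was the receptor that differed least among lymphocytes. Treg held 215 CPM (186 to 247), checkpoint-high CD8 T cells 186 (168 to 204), checkpoint-low CD8 T cells 154 (125 to 188), NK cells 134 (106 to 166) and Foxp3-negative CD4 T cells 134 (107 to 165), and each overlapped the next. All other classes were at 4.19 or below among those with at least 30 cells, under the 11.7 of free RNA. Its ligand Cd70 was far more restricted. Foxp3-negative CD4 T cells held 61.3 CPM (43.6 to 83.8; 39 UMIs in 12 of 81 cells), checkpoint-high CD8 T cells 58.3 (48.8 to 69.2; 131 UMIs in 37 of 110 cells) and mature DC 44.2 (31.0 to 61.2; 36 UMIs in 7 of 43 cells). In mature DC 24 of the 36 UMIs were in 1 cell. NK cells held 11.5 and Treg 8.82, and checkpoint-low CD8 T cells had 0 UMIs, where 3 counts would equal 4.76 CPM. Cd70 in free RNA was 5.26.

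CD40 and its ligand were split between myeloid cells and helper T cells. Cd40 was at 221 CPM in mature DC (190 to 256), 143 in monocytes (136 to 149), 117 in cDC2 (106 to 130), 73.8 in macrophages (71.8 to 75.9) and 49.4 in cDC1 (38.3 to 62.7), against 58.1 in free RNA, and melanoma cells held 0.894. Cd40lg had 44 UMIs in 27 of 81 Foxp3-negative CD4 T cells, or 69.1 CPM (50.2 to 92.8), 4 UMIs in Treg and 1 in checkpoint-high CD8 T cells. Of its 103 UMIs, 30.1% were in the mixed cluster and 16.5% in 82 T cells that passed no CD4, CD8 or Foxp3 gate. It had 0 UMIs in NK cells, every dendritic class, monocytes and melanoma cells, and 5 in macrophages, all in cells that also had a CD3 UMI.

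LIGHT (Tnfsf14) was low everywhere, with 416 UMIs in 348 of the kept cells. NK cells held 19.8 CPM (10.2 to 34.6), Foxp3-negative CD4 T cells 15.7 (7.54 to 28.9), checkpoint-low CD8 T cells 9.52, monocytes 6.14 (4.83 to 7.70) and macrophages 3.42 (3.00 to 3.88), with 0 UMIs in Treg. Neighbouring classes overlapped throughout. Of its receptors, Ltbr was at 63.8 CPM in monocytes, 50.9 in macrophages and 47.2 in melanoma cells and at 5.79 or below in the 5 lymphocyte sets, beside 41.2 in free RNA, whereas Tnfrsf14 was at 2.87 and 2.26 in monocytes and macrophages, near the 2.05 of free RNA.

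**Figure D2:**
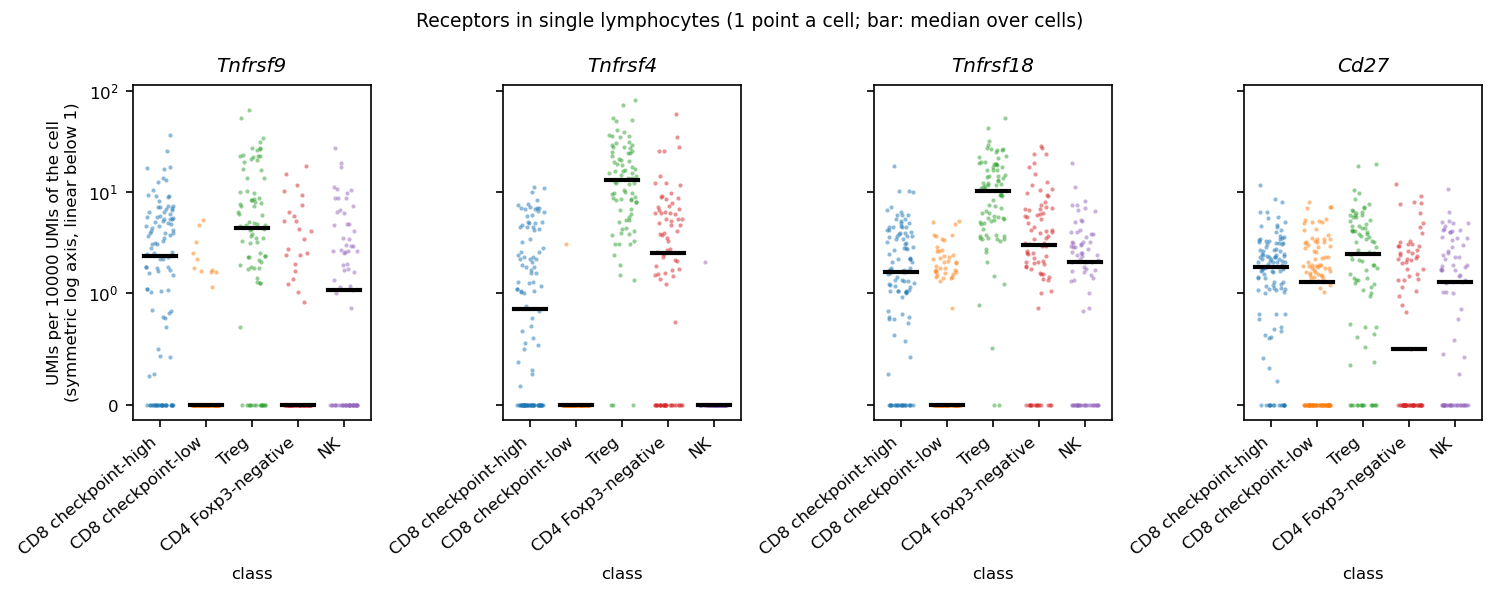
Tnfrsf9, Tnfrsf4, Tnfrsf18 and Cd27 in single lymphocytes, as UMIs per 10000 UMIs of the cell on a symmetric log axis; each point is a cell and the bar is the median. The Tnfrsf4 median is 13.2 in Treg and 0 in checkpoint-low CD8 T and NK cells, whereas Cd27 medians lie between 0.499 and 2.42.

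The comparison of checkpoint-high with checkpoint-low CD8 T cells asks how costimulation genes differ along the exhaustion axis that the study title names. OX40, 4-1BB, OX40 ligand, CD70 and GITR were higher in the checkpoint-high set, and CD27 was similar in both. Tnfrsf9 was 16.2-fold higher (9.91 to 28.4), at 411 against 25.4 CPM. Tnfrsf4 had 516 UMIs against 1, a ratio of 145 (25.9 to 5728), and Tnfsf4 49 against 1, a ratio of 13.7 (2.35 to 554). Cd70, with 131 UMIs against 0, was higher by at least 12.2-fold, taking 3 counts as the limit that a set at 0 allows. Tnfrsf18 was 2.70-fold higher (2.02 to 3.69), and the Cd27 ratio was 1.21 (0.965 to 1.52). So 5 of the 6 members with enough UMIs to compare were past 2-fold higher and 0 lower, where 18.5% of all 7032 genes compared were past 2-fold higher and 7.34% lower. The median ratio over all genes compared was 1.14. That over the members compared, 13.0, is only a description, since it lies between the Tnfsf4 ratio and the Cd70 bound, which is set by the limit of 3 counts. Comparison required 30 UMIs or more in the sets together and 3 or more expected in the smaller set. Tnfrsf9, Tnfrsf4, Tnfsf4 and Cd70 had 16 UMIs or fewer in the checkpoint-low set and met the first limit through the checkpoint-high set, so the count of 5 depends on that rule. Tnfsf9, Cd40, Cd40lg and Tnfsf14 had too few UMIs. With per-cell marker gates in place of clusters the log2 ratios were smaller, at 1.69 for Tnfrsf4 (against 7.18), 1.38 for Cd70 (against a bound of 3.61) and 2.84 for Tnfrsf9 (against 4.02), all still past 2-fold. Without the top cell of each set Tnfsf4 had 0 UMIs in checkpoint-low cells, and its log2 ratio was at least 1.98 at the same limit of 3 counts.

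These CD8 sets also differed in origin markers and depth. Xist, transcribed from the inactive X chromosome of female cells, had 721 UMIs in the checkpoint-high set and 0 in the checkpoint-low set, Treg, Foxp3-negative CD4 T and NK cells, and the red fluorescent reporter feature dsredexpress1 had 271 and 0. A UMI of either was found in 42 of the 110 checkpoint-high cells. In the 68 cells with neither, ratios to checkpoint-low cells were 16.5 (10.1 to 29.1) for Tnfrsf9, 133 for Tnfrsf4, 2.82 for Tnfrsf18 and at least 9.97 for Cd70. Tnfsf4 was the exception. Cells with an Xist or dsRed UMI held 39 of its 49 UMIs, 40.6 CPM against 7.79 in the other checkpoint-high cells, a ratio of 5.21 (2.55 to 11.7), while ratios for Tnfrsf9 (0.956), Tnfrsf4 (1.20), Tnfrsf18 (0.908) and Cd27 (1.02) were near 1 and that for Cd70 was 1.53 (1.07 to 2.20). Cells with either marker were deeper, with a median of 17900.5 against 12613 UMIs. The part of depth or origin in these differences was not tested.

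Among other genes of the pathway, 3 of the 19 compared from a list of 20 adaptor and NF-κB genes were past 2-fold higher in checkpoint-high cells and 4 lower. The highest were the survival gene Bcl2a1d at 7.35-fold (4.47 to 13.0) and Nfkb2, a subunit of alternative NF-κB, at 3.80-fold. The lowest were Bcl2, at 0.245, and the kinase Map3k14 (NIK), at 0.249. Of 13 related ligands and receptors, 4 could be compared and 1 was past 2-fold higher. The extremes were Tnfsf8 (CD30 ligand) at 6.03 (1.57 to 51.4) and Tnfsf13b (BAFF) at 1.85, and at the low end Tnfrsf1b (TNF receptor 2) at 0.593 and Cd160 at 1.52.

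In the CD4 compartment receptors and ligands differed in opposite directions. Treg held more OX40, 2.75-fold (2.42 to 3.13), and more 4-1BB, 2.56-fold (2.11 to 3.11), than Foxp3-negative CD4 T cells, with smaller ratios for GITR, 1.82 (1.59 to 2.09), and CD27, 1.61 (1.24 to 2.10). Cd70 was lower at a ratio of 0.144 (0.0581 to 0.312), with 8 UMIs against 39, and Cd40lg at 0.0638 (0.0166 to 0.175), with 4 UMIs against 44. Of 6 members compared, 2 were past 2-fold higher and 2 lower, against 5.72% and 3.79% of 5625 genes. Of the 81 Foxp3-negative CD4 T cells, 58 had no Tnfrsf9 UMI and 6 held 50% of its UMIs. With the mean of each cell's CPM, log2 ratios were 2.57 for Tnfrsf9 (against 1.355) and 1.25 for Tnfrsf18 (against 0.864), both past 2-fold. Cd70 and Cd40lg stayed lower, at -3.07 and -3.26. The Foxp3-negative gate took in cells of cluster 21, the deeper cluster of the checkpoint-high CD8 T cells, and their part in the summed CD4 levels and ratios was not tested. This gate still held Treg genes, with Ikzf2 at 118 CPM against 897 in Treg. Restricted to its 50 cells with no Ikzf2 or Il2ra UMI, a choice made after the data were examined, Treg over CD4 ratios were 3.95 for Tnfrsf9, 3.41 for Tnfrsf4, 2.31 for Tnfrsf18 and 0.0568 for Cd40lg, and Cd70, at 10 UMIs, could no longer be compared. Of the adaptor and NF-κB list, 1 of 17 compared was past 2-fold higher (Traf3, 2.11, followed by Bcl2l1, 1.89) and 1 lower (Bcl2, 0.240, followed by Bcl2a1d, 0.630). Of the related genes, Tnfrsf1b, at 2.48, and Tnfrsf13b (TACI), at 2.41, were higher, Tnfrsf25 (DR3) was lower at 0.297, and Tnfsf8, with 0 UMIs in Treg against 176 CPM, was lower at a ratio of at most 0.0188.

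Treg also differed from checkpoint-high CD8 T cells, the other 4-1BB-rich class. Tnfrsf4 was 5.77-fold (5.20 to 6.41) and Tnfrsf18 3.86-fold higher (3.44 to 4.34) in Treg, whereas Tnfrsf9 differed by 1.35-fold (1.21 to 1.51) and Cd27 by 1.16-fold (0.972 to 1.38). Both ligands that could be compared were lower in Treg, Cd70 at a ratio of 0.151 (0.064 to 0.307) and Tnfsf4, with 0 UMIs in Treg, at a ratio of at most 0.152. So 2 of 6 members compared were past 2-fold higher and 2 lower, against 6.78% and 5.03% of 7330 genes. In summed counts NK cells were near checkpoint-high CD8 T cells for 4-1BB and GITR, with ratios of 0.903 (0.777 to 1.05) and 1.13 (0.933 to 1.36). Single cells differed more for 4-1BB, with a median of 1.07 per 10000 UMIs in NK cells against 2.32. No Tnfrsf9 UMI was found in 35 of 75 NK cells and 28 of 110 checkpoint-high CD8 T cells. OX40, however, was far lower in NK cells, at a ratio of 0.00718 (0.000181 to 0.0402), as was Cd70, at 0.198 (0.0781 to 0.420). Here 0 of 6 members compared were past 2-fold higher and 3 lower, Tnfsf4 included, against 6.47% and 13.5% of 7020 genes.

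**Figure D3:**
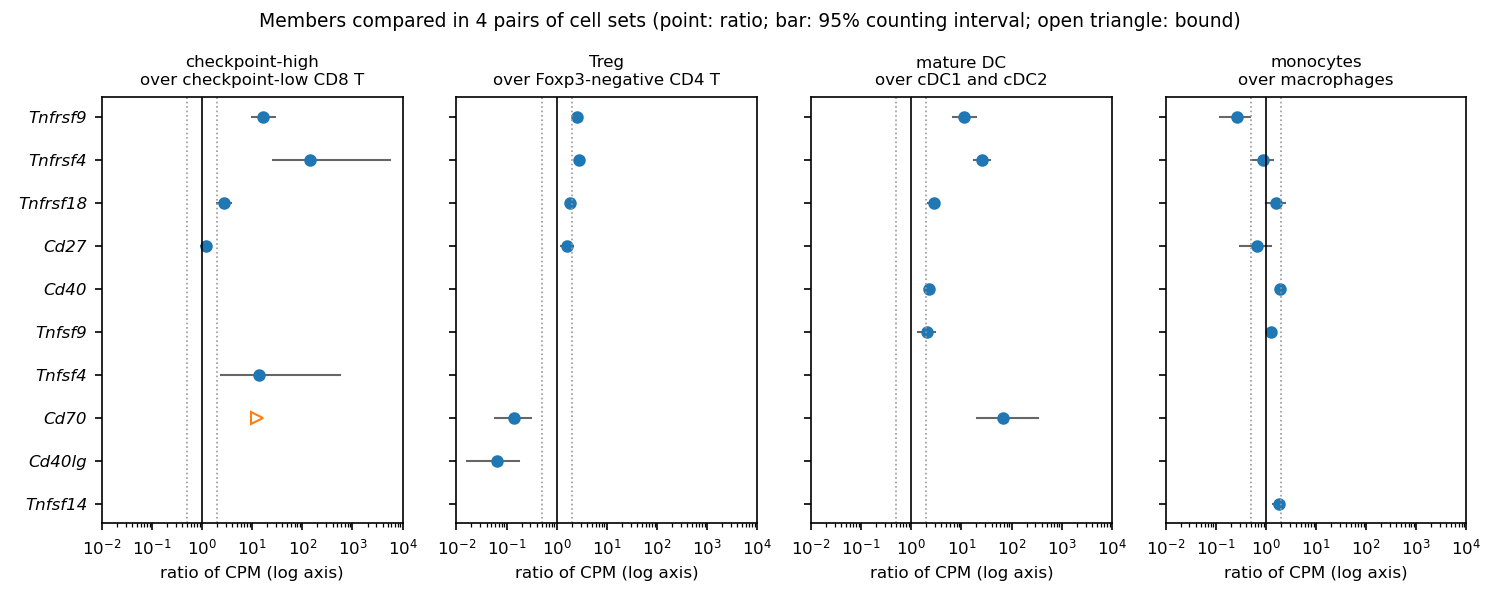
Ratio of CPM (first over second set, log axis) for each member compared in 4 pairs of sets; points are ratios, bars 95% counting intervals, the open triangle a lower bound, and dotted lines mark 2-fold. Receptors lie right of 1 and ligands left of 1 in Treg over Foxp3-negative CD4 T cells, and all 6 members compared lie past 2-fold higher in mature DC.

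Across lineages, the 461 T and NK cells were set against the 2938 monocytes and macrophages. Lymphocytes held more of 7 members and myeloid cells more of 2. The ratios were 128 for Tnfrsf9, 241 for Tnfrsf4, 217 for Tnfrsf18, 146 for Cd27, 231 for Tnfsf4, 509 for Cd70 and 162 for Cd40lg. Myeloid cells held more Cd40 (ratio 0.0616, 0.0402 to 0.0904) and Tnfsf9 (0.290, 0.203 to 0.403), and Tnfsf14 stood at 1.93 (1.33 to 2.71). Of all 11641 genes compared, 14.6% were past 2-fold higher and 19.9% lower. Of the adaptor and NF-κB list, 9 of 20 were higher and 2 lower, with the adaptor Traf1 at 12.8 and Birc2 (cIAP1) at 6.44 highest and Icosl (ICOS ligand) at 0.182 and Bcl2l1 at 0.451 lowest. Of 10 related genes, 4 were higher, led by Cd160 at 267 and Tnfrsf8 (CD30) at 18.2, and 5 lower, with Ltbr at 0.0754 and Tnfsf13b at 0.177 lowest. The small counts of T cell members in macrophages moved with CD3. Cells with a CD3 UMI (167 of 2159) held Tnfrsf18 at 12.3 CPM and Cd27 at 9.09, and the other 1992 held 0.221 and 0.362.

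Mature DC, a migratory state of dendritic cells, held more of every member that could be compared than cDC1 and cDC2 pooled. For Tnfsf9, however, the mature DC interval (32.0 to 62.6 CPM) overlapped that of cDC2 alone (22.3 to 34.3). Against cDC1 and cDC2 together, ratios were 66.1 for Cd70 (20.9 to 335), 25.5 for Tnfrsf4 (17.7 to 37.7), 11.2 for Tnfrsf9 (6.77 to 19.2), 2.80 for Tnfrsf18 (2.15 to 3.64), 2.28 for Cd40 (1.91 to 2.72) and 2.02 for Tnfsf9 (1.35 to 2.97). So 6 of 6 members were past 2-fold higher and 0 lower, where 10.0% of 8392 genes were higher and 20.5% lower. Cd70, with 3 UMIs in cDC1 and cDC2, and Tnfrsf9, with 24, met the UMI limit for comparison through mature DC. The count of 6 therefore depends on that limit. Members with too few UMIs went both ways, with Cd27 (1 UMI against 11) and Tnfsf14 (2 against 16) lower and Tnfsf4 (3 against 1) higher. Cd40lg had 0 UMIs in both sets. The Tnfsf9 interval includes ratios under 2, and its ratio was below 2 in 7 of 14 alternatives. With cells thinned to 2000 UMIs only Cd40 could be compared, and its log2 ratio was then 0.68 against 1.19, under 2-fold. The Cd70 ratio rests on 1 cell with 24 of the 36 UMIs, and without the top cell of each member Cd70 had too few UMIs to compare and 4 of 5 members were past 2-fold.

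Tnfrsf4, Tnfrsf18 and Tnfrsf9 are best known from T cells, and T cell RNA in mature DC was therefore counted. CD3 genes stood at 38.1 CPM in mature DC, 92.1 in cDC2 and 2948 in Treg. In the 39 of 43 mature DC with no CD3 UMI, Tnfrsf4 was at 213 CPM (180 to 251), Tnfrsf18 at 124 (98.6 to 153), Tnfrsf9 at 65.6 (47.7 to 88.1) and Cd70 at 49.2 (33.9 to 69.1), as high as in the whole class, and Cd27 had 1 UMI. In cDC2 the picture was different. Those with no CD3 UMI (129 of 144) held 2 UMIs each of Tnfrsf4 and Tnfrsf9, 0.743 CPM, and those with a CD3 UMI held 70.9 and 48.1. Tnfrsf18 was at higher levels than these in cDC2 and cDC1 with no CD3 UMI, at 37.9 (30.9 to 46.0) in 61 of 129 cells and at 23.6 (15.7 to 34.1) in 21 of 42 cells.

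**Figure D4:**
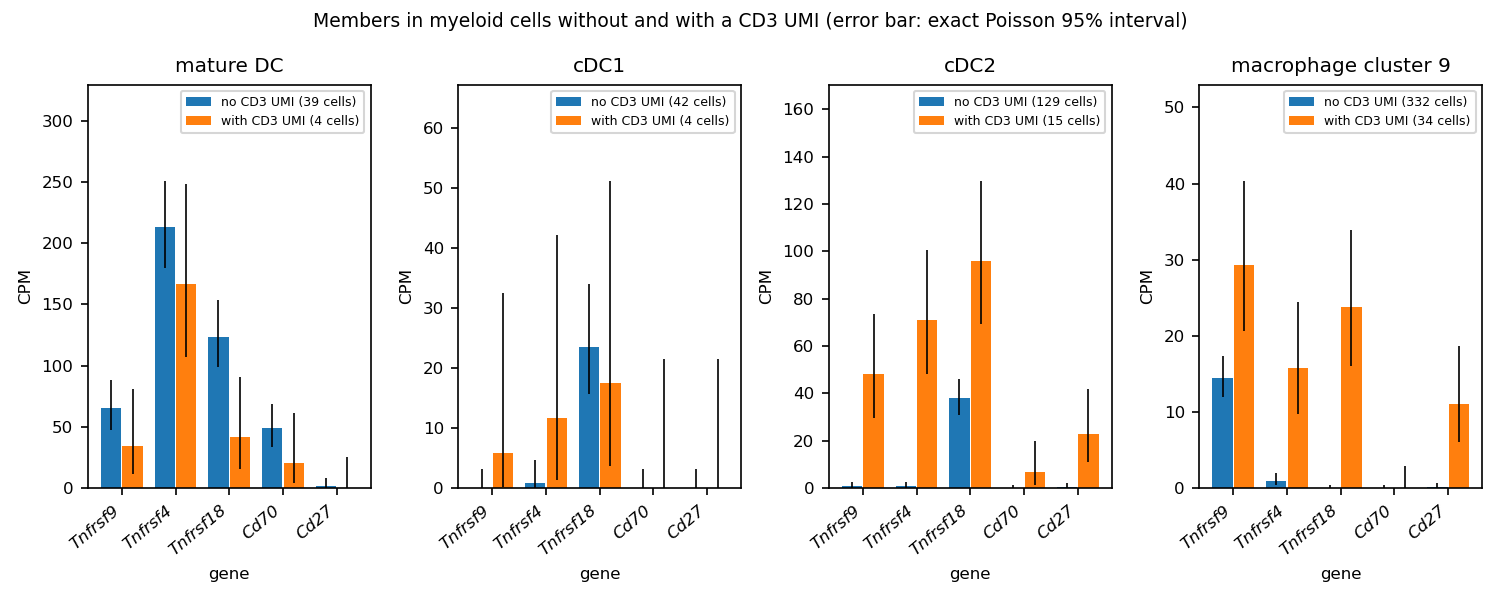
CPM of 5 members in cells without (blue) and with (orange) a CD3 UMI in mature DC, cDC1, cDC2 and macrophage cluster 9; error bars are exact Poisson 95% intervals. Tnfrsf4 in mature DC is 213 CPM without a CD3 UMI, whereas in cDC2 it is 0.743 without and 70.9 with one.

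Other genes of the pathway were also higher in mature DC. Of the adaptor and NF-κB list, 13 of 20 were past 2-fold higher, with Relb, the partner of Nfkb2, at 10.4 (8.91 to 12.2) and Map3k14 at 7.09 highest, and 1 was lower, Bcl2 at 0.109 (0.0223 to 0.326; 3 UMIs in mature DC), with Nfkb1 next at 1.23. The list's median ratio was 3.25, and that of all genes 0.831. Of 6 related genes compared, 1 was higher (Tnfrsf1b, 3.32, followed by Tnfsf13b, 1.62) and 2 lower (Tnfrsf13b, 0.150, and Tnfrsf13c, the BAFF receptor, with 0 UMIs in mature DC and a ratio of at most 0.435). Between the other 2 classes, cDC2 held more than cDC1 of Tnfsf9 (2.70, 1.52 to 5.13), Cd40 (2.38, 1.83 to 3.13) and Tnfrsf18 (2.02, 1.36 to 3.07). Tnfrsf4 had the highest ratio, with 33 UMIs against 3, but cells with no CD3 UMI held only 2 and 1 of these. So 4 of 4 members compared were past 2-fold higher and 0 lower, where 9.31% of 7982 genes were higher and 4.61% lower. In cells with no CD3 UMI Tnfrsf18 was at 37.9 against 23.6 CPM, less than 2-fold apart, and 8 of the 14 Tnfsf9 UMIs of cDC1 were in 1 cell.

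Within the monocyte to macrophage lineage Cd40, Tnfsf14 and Tnfsf9 were higher in monocytes, by less than 2-fold. Monocytes over macrophages gave 1.93 for Cd40 (1.83 to 2.04), 1.80 for Tnfsf14 (1.37 to 2.34) and 1.27 for Tnfsf9 (1.14 to 1.43). Of 7 members compared, 0 were past 2-fold higher, where 6.84% of 12027 genes were, and 1 was lower (Tnfrsf9, 0.260, 0.123 to 0.487), where 12.9% were. Monocyte cluster 1, with 485 of 779 cells, held the macrophage C1q genes at 7040 CPM, against 1534 in cluster 3. Without cluster 1, log2 ratios were 1.39 for Cd40, 2.12 for Tnfsf14 and 1.09 for Tnfsf9. The share of all genes past 2-fold was not computed without cluster 1. Of the adaptor and NF-κB list, 3 of 20 were higher in monocytes, with Traf1 at 5.11 and Birc3 (cIAP2) at 2.45 highest and Icosl (0.841) and Traf2 (0.867) lowest. Of 9 related genes, 2 were higher (Btla, 10.6, and Tnfrsf8, 4.28) and 1 lower (Tnfsf13b, 0.285, with Tnfsf8 next at 0.765).

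Among the clusters, Cd40 was highest in macrophage cluster 16, which was led by the interferon-induced genes Cxcl10, Cxcl9 and Ifit3. It held 296 CPM (280 to 313), 4.98-fold more (4.67 to 5.31) than other macrophages, whose clusters lay between 45.2 and 69.6. Monocyte cluster 3 (Chil3, Vcan) followed with 213 (196 to 231). Tnfsf9 and Tnfsf14 were instead highest in monocyte cluster 12, 45 cells led by the heat shock genes Hspa1a and Hspb1, at 103 CPM (76.8 to 136) and 30.3 (17.0 to 50.0), or 3.80-fold (2.77 to 5.12) and 5.92-fold (3.12 to 10.6) more than other monocytes. Cd40 was lower there, at a ratio of 0.557 (0.396 to 0.762). Heat shock genes are induced by dissociation as well as in tissue, and their part in this result was not tested.

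Macrophage cluster 9, led by the hypoxia-responsive genes Slc2a1, Adm and Ndrg1, held 155 of the 223 Tnfrsf9 UMIs of macrophages. Its level was 16.5 CPM (14.0 to 19.3), 14.9-fold more (11.1 to 20.1) than in other macrophages. Free RNA alone held 22.5 CPM and was estimated at 5.68% of macrophage UMIs. In the 332 cells of cluster 9 with no CD3 UMI, 30 cells held 118 Tnfrsf9 UMIs, at 14.5 CPM (12.01 to 17.4), while Tnfrsf18 had 0 UMIs and Cd27 1. Tnfsf14 was also higher in cluster 9, at 9.15 CPM, 3.60-fold more (2.73 to 4.71), and Tnfsf9 was 1.497-fold higher (1.32 to 1.69). The comparisons of single clusters and of cells by CD3 UMI were chosen after the data were examined.

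**Figure D5:**
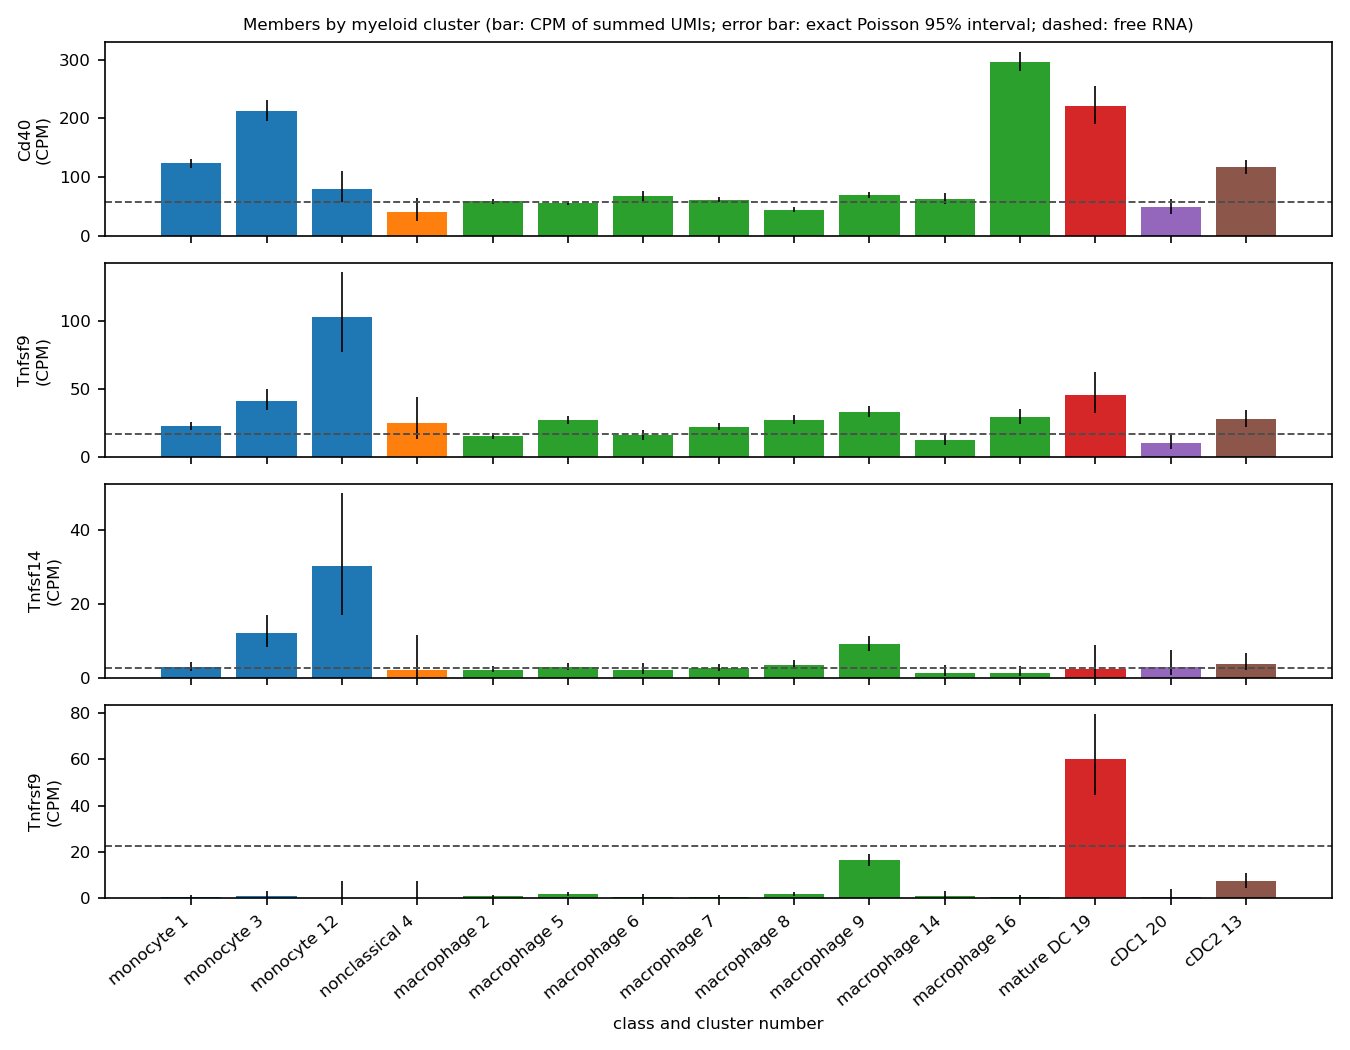
CPM of Cd40, Tnfsf9, Tnfsf14 and Tnfrsf9 in each myeloid cluster, coloured by class; bars start at 0, error bars are exact Poisson 95% intervals and the dashed line is free RNA. Cd40 peaks in macrophage cluster 16 at 296, Tnfsf9 and Tnfsf14 in monocyte cluster 12 at 103 and 30.3, and Tnfrsf9 in mature DC at 60.2.

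By spatial barcode, lymphocyte members were compared between T and NK cells assigned to ZC1 (37 cells) and to ZC3 (140 cells), each cell going to its leading barcode if that had 10 counts or more and 2 times those of the runner-up. ZC1 cells held less OX40, at 174 against 501 CPM (ratio 0.347, 0.248 to 0.472), less Cd70, with 1 UMI against 74 (ratio 0.0976, 0.00244 to 0.561), and Tnfrsf9 at 0.602 (0.450 to 0.791), while Tnfrsf18 (0.888) and Cd27 (0.851) had intervals that include 1. Of 5 members compared, 0 were past 2-fold higher and 2 lower, against 4.91% and 13.9% of 6248 genes. The make-up of the sets differed too, since 0 of the 37 ZC1 cells and 39 of the 140 ZC3 cells were checkpoint-high CD8 T cells, and its part was not tested. Over all kept cells this first rule was uneven, with 76 in ZC1, 85 in ZC2 and 2207 in ZC3. The rule given next put 670, 601 and 1081 there. Another rule, which divides by each barcode's share in free RNA barcodes and was set after the data were examined, assigned 135 and 86 cells, and 0 of 5 members were then past 2-fold, where 3.17% of genes were higher and 3.22% lower. Tnfrsf4 was at 0.850 (0.741 to 0.975), Cd70 at 0.551, Tnfrsf9 at 0.601 (0.511 to 0.704) and Tnfrsf18 at 1.30 (1.12 to 1.52). Under that rule checkpoint-high CD8 T cells of ZC2 and ZC3 (27 cells each) gave ratios between 0.931 and 1.52, at 0.985 for Tnfrsf9 (0.831 to 1.17), 0.931 for Tnfrsf4 (0.747 to 1.16), 1.09 for Tnfrsf18 and 1.05 for Cd27, and Cd70 was the farthest from 1 at 1.52 (0.915 to 2.55). In cDC2, Cd40 was lower in ZC2 (47 cells) than in ZC3 (44 cells), at a ratio of 0.627 (0.487 to 0.805). Within the adaptor and NF-κB list, 1 of 18 genes was past 2-fold higher in ZC1 by the first rule (Bcl2, 4.04, with Traf6 next at 1.73) and 3 lower, led by Bcl2a1d at 0.320 and Bcl2a1b at 0.404. Of 3 related genes 0 passed (Tnfrsf1b 1.28, Tnfsf8 1.00, Cd160 0.894).

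Pairs of receptors were found together in single cells, at shares that differed between classes and depend on depth. Thinned to 2000 UMIs, 65.0% of Treg (53.5% to 75.3%) had UMIs of both Tnfrsf4 and Tnfrsf18, where the product of the separate shares gives 64.5%. In checkpoint-high CD8 T cells, 17.3% (10.7% to 25.7%) had both Tnfrsf9 and Tnfrsf18 and 14.5% both Tnfrsf9 and Tnfrsf4, where the products give 11.9% and 11.3%. In counts, 19 of 110 cells had both Tnfrsf9 and Tnfrsf18, where 36 had Tnfrsf9 and 40 had Tnfrsf18. These are shares over cells of 1 library, and their departure from the products was not tested.

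Likeness was measured as the Pearson correlation of log2(CPM + 5) over the 12 classes with at least 30 cells, all from 1 library, among 10680 genes. Nearest to Cd27 were Gimap7 (0.993), Il27ra (0.990) and Gpr174 (0.988), and nearest to Cd40 were Ago4 (0.976), Pgap2 (0.961) and Cxcl16 (0.954). Cd40lg was nearest to Cd4 (0.914), C2cd5 (0.882) and Prr14l (0.875), and Cd70 to Cd2bp2 (0.924), Mir155hg (0.907) and Zbtb17 (0.877). For Tnfrsf9 they were Gm45716 (0.961), Zfp51 (0.958) and Dalrd3 (0.935), for Tnfrsf4 St14 (0.930), Fam110a (0.920) and Pex16 (0.919), and for Tnfrsf18 Fcho1 (0.949), Kdm2b (0.940) and Supt20 (0.937). Those of Tnfsf9 were Prrg2 (0.947), Tctex1d2 (0.940) and Stk38l (0.924), and those of Tnfsf14 1110059G10Rik (0.945), D430042O09Rik (0.883) and Ccdc166 (0.835). Tnfsf4, with fewer than 100 UMIs, was left out.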

How the data were processed

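Gene UMIs and spatial barcode UMIs were taken from the matrix of counts that the authors deposited, which per the file headers was written by Cell Ranger 4. The submitters' processing notes name Cell Ranger 4.0.0 and mm10, and the sources used here give no other settings. All values were whole numbers. The matrix held 117528298 gene UMIs and 14355102 spatial UMIs. Cells were barcodes with 1000 UMIs or more, 500 genes or more and no more than 10% mitochondrial UMIs, in all 4236 cells with a median of 23132 UMIs. Scrublet called 0 doublets, so its threshold did not work here and none was removed.

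Each cell was scaled to 10000 counts and log transformed, then clustered (scanpy 1.11.5, 30 components, 15 neighbours, Leiden at resolution 1) on 1977 variable genes, without the members and both pathway lists, into 24 clusters. A cluster took the name of its leading marker list with at least 3 markers in 5% of cells. Mixed clusters (CD3 as well as C1q genes reaching 10% of the highest cluster) and an unnamed cluster were set by rules made after the data were examined. With 1 library no test was made: CPM carry exact Poisson, shares exact Clopper-Pearson and ratios exact conditional binomial intervals at 95% (scipy 1.17.1), for counting error only. Sets at 0 were put at 3 counts. The interval code was tested on simulated data.

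The members and lists were chosen with earlier results of these data known. Named genes are all members, the 2 highest and 2 lowest of each pathway list per comparison, and the 3 nearest by likeness. Genes that lead clusters or mark origin (Xist, dsRed), the levels of Ltbr, Tnfrsf14 and Tnfsf18, and comparisons between other classes were chosen after their values were seen. Alternatives changed the filters, clustering, gates, averaging, free RNA, thinning, count rule and barcode rule. Raw reads were not used here. Other tools were Python 3.11.15, numpy 2.4.6, pandas 2.3.3, matplotlib 3.10.9, scikit-image 0.26.0 and igraph 0.11.9.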

Additional observations from a re-analysis of the deposited data

How the results depend on the processing

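Counts of members past 2-fold, in either direction, were within 1.5 times the value given above under all alternatives except those that follow. With cells thinned to 2000 UMIs, 3 of 4 members passed between the CD8 sets, 0 of 1 in mature DC, where Cd40 was under 2-fold at a log2 ratio of 0.68, and 1 of 4 by spatial barcode. Fewer members had enough UMIs in each. Monocytes over macrophages changed most. The count of 1 became 2 with a mitochondrial limit of 5%, with Leiden resolution 2, with per-cell marker gates and without CD3-positive myeloid cells, 3 with the mean of each cell's CPM and with free RNA subtracted, and 4 without monocyte cluster 1. Shares of all genes past 2-fold were not computed for these alternatives. The count of 2 by spatial barcode became 1 with the mean of each cell's CPM, 4 of 9 with a minimum of 10 UMIs and 0 with the relative assignment. The share of Treg with both Tnfrsf4 and Tnfrsf18 was 39.0% at 1000 and 84.8% at 4000 UMIs a cell, against 65.0% at 2000. Of 578 log2 ratios of single members under alternatives, 488 lay within the counting interval of the value given above, 90 outside it, and 0 called ratios changed sign. At Leiden resolution 0.5 the CD8 T cells formed 1 cluster, so the CD8 comparison gave no value. The members whose thinned share was highest in a T or NK class were 8 of 10 at 2000 UMIs and 9 at 1000. Few UMIs limit Tnfsf4, Cd40lg, Cd70 and Tnfsf14 most. No paired analysis was possible because each library is the only sample of its kind. No replicate could be left out for the same reason.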
